A study of Saccharomyces cerevisiae with 8 samples.

Results

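Transcripts of 10 budding yeast (Saccharomyces cerevisiae) genes for glucose uptake and glucose sensing were followed in RNA recovered with the RNA helicase Upf1p. They are 8 hexose transporter genes (HXT1, HXT2, HXT3, HXT4, HXT5, HXT8, HXT10 and HXT14) and the 2 genes of the glucose sensors, SNF3 and RGT2. The genes were taken where an array probe set was annotated to them alone, which gave 10 probe sets of 9275 tested, 1 per gene. Upf1p is the central factor of nonsense-mediated mRNA decay, which degrades mRNAs whose translation ends too early, and the study asked which transcripts are bound with it. Per the labels, 4 arrays held RNA from affinity selections of Upf1p carrying a TAP tag (an affinity tag that binds IgG), and 4 held RNA from mock selections, in 4 numbered pairs. All cells grew in rich medium (YEPD) at 30 °C. The extract was bound to IgG Sepharose, and the bound material was released with TEV protease. The labels give neither the genotype of the mock strain nor the promoter of the tagged gene. Equal amounts of RNA from both selections went into the last purification step, so a ratio compares the make-up of 2 RNA pools and not their yield. Total RNA of the extract was not used here.

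Yeast takes up glucose by facilitated diffusion through the Hxt proteins, members of the sugar porter family that differ in affinity. Snf3p and Rgt2p resemble the transporters but act as sensors of glucose outside the cell, each with a long tail in the cytoplasm. When they bind glucose, the casein kinases Yck1p and Yck2p and the SCF-Grr1p ubiquitin ligase remove the corepressors Mth1p and Std1p. The repressor Rgt1p, which works with Cyc8p and Tup1p, then leaves the HXT promoters. Low-affinity transporters such as Hxt1p are made when glucose is plentiful, and high-affinity ones such as Hxt2p and Hxt4p when it is scarce. In the RefSeq annotation (assembly R64) the coding lengths were 2655 bases for SNF3 and 2292 for RGT2, against 1623 (HXT14) to 1779 (HXT5) for the 8 transporters.

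The values are array intensities on a linear scale, deposited after scaling. The median signal of an array over the tested probe sets lay between 58.2 and 78.1, and the 25th percentile of all tested values was 16.0. Ratios are log2 ratios of Upf1p-TAP over mock, fitted with limma on log2(intensity + 4.09) with the pair as a block. Adjusted p-values are Benjamini-Hochberg over all 9275 probe sets, from two-sided tests, and 0.05 was the threshold. The added constant pulls the log2 ratio of a dim transcript towards 0. Levels are compared between arrays for 1 gene at a time, since probe sets of different genes differ in brightness for reasons other than abundance.

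With Upf1p-TAP the transporter transcripts HXT2, HXT1 and HXT3 were lower, 3 of the 10 genes, and HXT2 was furthest from 0. None of the 10 genes was called higher by limma, and 7 did not pass in either direction. At an unadjusted p under 0.05, 4 were lower and 1 was higher. Over all tested probe sets, 13.5% were called lower and 17.7% higher. The groups did not overlap for the same 3 genes, all lower, while 11.1% of all probe sets were lower without overlap and 14.9% higher. The median log2 ratio of the 10 genes was -0.26, against 0.00 over all tested probe sets. HXT1, HXT2 and HXT3 were among the brightest 20% of probe sets by the mean over all 8 arrays, the only 3 of the 10 there. In that brightest class 21.4% were called lower and 18.0% higher, with a median of -0.10.

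HXT2 (YMR011W, probe set 9633_at) encodes a high-affinity glucose transporter. Its intensity was 298, 211, 107 and 196 in Upf1p-TAP replicates 1 to 4. The mock values were 1077, 429, 686 and 810.1. Every tagged array lay below every mock array, with the lowest mock value in replicate 2. The means were 203 ± 78.1 and 751 ± 269 (SD, n = 4), 3.69 times lower with the tag. The log2 ratio was -1.88 (SE 0.26, limma adjusted p = 8.19e-04), and it was -1.84, -1.01, -2.63 and -2.02 in pairs 1 to 4. Only 0.8% of all tested probe sets had a lower ratio. HXT2 was called lower under each of the 11 alternatives run, with log2 ratios from -2.16 to -1.62.

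HXT1 (YHR094C, probe set 4430_at) encodes a low-affinity transporter used at high glucose. Its intensity was 506, 322, 314 and 513 in Upf1p-TAP replicates 1 to 4 and 598, 726, 944 and 822 in the mock. The groups did not overlap, but pair 1 was close, with the lowest mock value beside one of the higher tagged ones. The means were 414 ± 111 and 772 ± 147 (SD, n = 4), and the log2 ratio was -0.91 (SE 0.24, limma adjusted p = 0.0169). The pairs gave -0.24, -1.16, -1.58 and -0.68. The call ended without replicate 2 (-0.83, limma adjusted p = 0.0666) and without replicate 3 (-0.69, limma adjusted p = 0.0559).

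HXT3 (YDR345C, probe set 6131_at), another low-affinity transporter gene, had the narrowest range of pair ratios of the 10. Its intensity was 1350.1, 1364, 1680.0 and 1502 with the tag and 2046, 1933, 2422 and 2212 in the mock. All tagged arrays lay below all mock arrays, and replicate 3 was the highest in both groups. The means were 1474 ± 154 and 2153 ± 213 (SD, n = 4), 1.46 times lower with the tag. The log2 ratio was -0.55 (SE 0.15, limma adjusted p = 0.0226), and the pairs lay between -0.60 and -0.50. The call ended without the intensity trend (limma adjusted p = 0.0553) and without replicate 1, 2 or 4 (highest limma adjusted p = 0.0833), with a log2 ratio between -0.56 and -0.53 in all 4 of these fits.

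HXT4 (YHR092C, probe set 4428_at), a high-affinity transporter gene, had a mean ratio like that of HXT1 but varied more and did not pass. Its intensity was 124, 161, 60.5 and 221 in the Upf1p-TAP selections. In the mock it was 458, 135, 240.3 and 255. The groups overlapped, since mock replicate 2 lay below Upf1p-TAP replicates 2 and 4. The log2 ratio was -0.93 (SE 0.37, 95% interval -1.75 to -0.11, limma adjusted p = 0.0816), made up of -1.85, 0.25, -1.92 and -0.21 in pairs 1 to 4. HXT4 was called lower without replicate 2 (-1.33, limma adjusted p = 0.0266), after median centring (-1.08, limma adjusted p = 0.0293) and after quantile normalization (-1.07, limma adjusted p = 0.0450). Without replicate 1 or 3 the log2 ratio was -0.62 or -0.60.

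**Figure D1:**
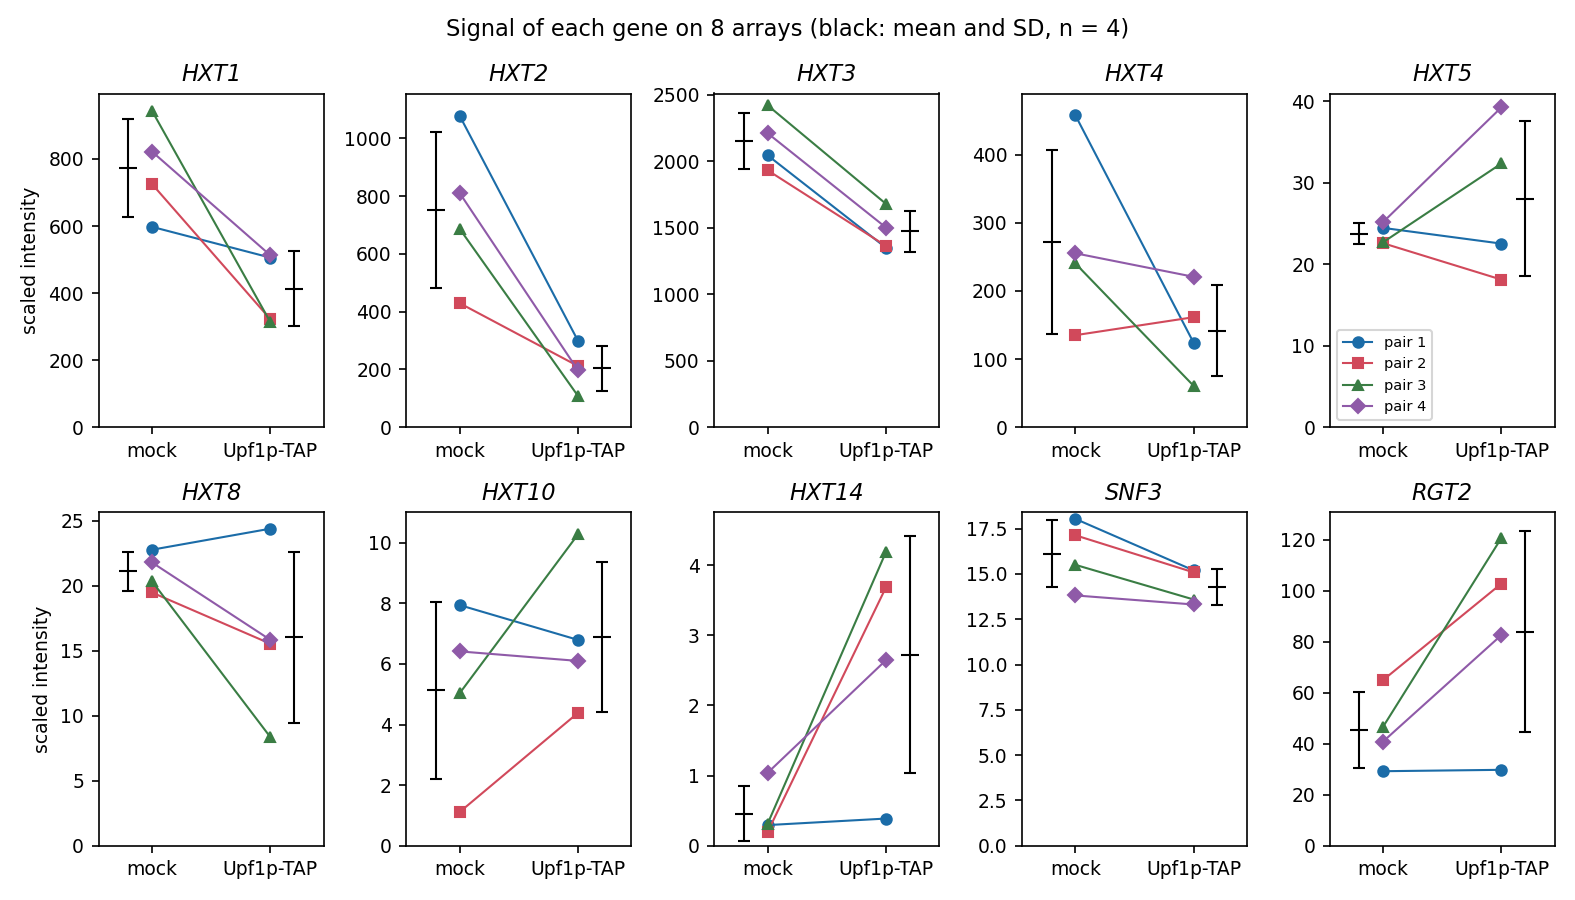
Scaled intensity (vertical axes, linear, from 0) of each of the 10 genes on the mock and Upf1p-TAP arrays, with a line joining each pair and the mean and SD of 4 arrays in black. Tagged values lie below all mock values for HXT1, HXT2 and HXT3, and the lines run in both directions for HXT4, HXT5, HXT8 and HXT10.

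The remaining transporters were dim on all arrays and none passed the test. HXT5 (YHR096C, probe set 4432_at), whose protein is known for a role in slow growth and starvation, gave 22.5, 18.1, 32.4 and 39.3 with the tag and 24.5, 22.6, 22.7 and 25.2 in the mock. The tagged arrays thus lay on both sides of a tight mock group. The log2 ratio was 0.16 (95% interval -0.37 to 0.69, limma adjusted p = 0.646). HXT8 (YJL214W, probe set 11258_at) gave 24.4, 15.5, 8.35 and 15.8 with the tag and between 19.5 and 22.8 in the mock. Its log2 ratio was -0.38 (95% interval -0.93 to 0.16, limma adjusted p = 0.266), with pair 3 at -0.97 and pair 1 at 0.08.

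HXT10 and HXT14 lay below the 25th percentile of all tested values in both groups. HXT10 (YFL011W, probe set 5376_at) ranged from 4.39 to 10.3 with the tag and from 1.11 to 7.94 in the mock, with a log2 ratio of 0.29 (95% interval -0.26 to 0.85, limma adjusted p = 0.408). HXT14 (YNL318C, probe set 9166_at) gave 0.387, 3.68, 4.19 and 2.65 with the tag and 0.294, 0.192, 0.309 and 1.04 in the mock. Only 1 of these 8 values exceeded the added constant of 4.09, so the size of its log2 ratio of 0.55 (limma adjusted p = 0.119) is set largely by that constant. Without the constant it was 2.44, and HXT14 was not called in that fit either. A difference for these 2 genes would have been hard to detect at this signal.

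Neither sensor gene passed, and their ratios had opposite signs. RGT2 (YDL138W, probe set 6637_at) encodes the sensor for high glucose. Its intensity was 29.8, 103, 121 and 82.6 with the tag and 29.2, 65.0, 46.7 and 40.8 in the mock. Upf1p-TAP replicates 2, 3 and 4 lay above all mock arrays, and replicate 1 lay beside the lowest mock value. The log2 ratio was 0.73 (SE 0.25, 95% interval 0.16 to 1.29, limma adjusted p = 0.0533), with 0.02, 0.63, 1.30 and 0.95 in pairs 1 to 4. RGT2 was called higher without replicate 1 (0.96, limma adjusted p = 0.0285) and when dim probe sets were left out (0.73, limma adjusted p = 0.0353), the only 2 of 11 alternatives that called it.

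SNF3 (YDL194W, probe set 6669_at) encodes the sensor for low glucose. It gave 15.2, 15.1, 13.6 and 13.3 with the tag and 18.0, 17.1, 15.5 and 13.8 in the mock. The values were close together and the groups overlapped, at a signal about that of the 25th percentile of all tested values. Its log2 ratio was -0.13 (95% interval -0.61 to 0.34, limma adjusted p = 0.672), below 0 in 4 of 4 pairs.

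In the order of the mean ratio the genes ran HXT2, HXT4, HXT1, HXT3, HXT8, SNF3, HXT5, HXT10, HXT14 and RGT2. Of the 9 neighbouring pairs in this order, only HXT10 and HXT14 differed by more than 1 SD and in the same direction in 4 of 4 array pairs (mean difference 0.26 ± 0.13, SD, n = 4). Both of these are dim, and most HXT14 values lie below the added constant. Between HXT4 and HXT2 the mean difference was 0.94 ± 0.78 and positive in 3 of 4 pairs. HXT2 lay below HXT3 in 4 of 4 pairs, by between 0.51 and 2.10 on the log2 scale (HXT2 minus HXT3, mean -1.33 ± 0.66, SD, n = 4). Its difference from HXT1 was -0.96 ± 0.78, with 3 of 4 pairs negative. The sign of each of the 10 ratios was the same under all alternatives run, scalings included.

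**Figure D2:**
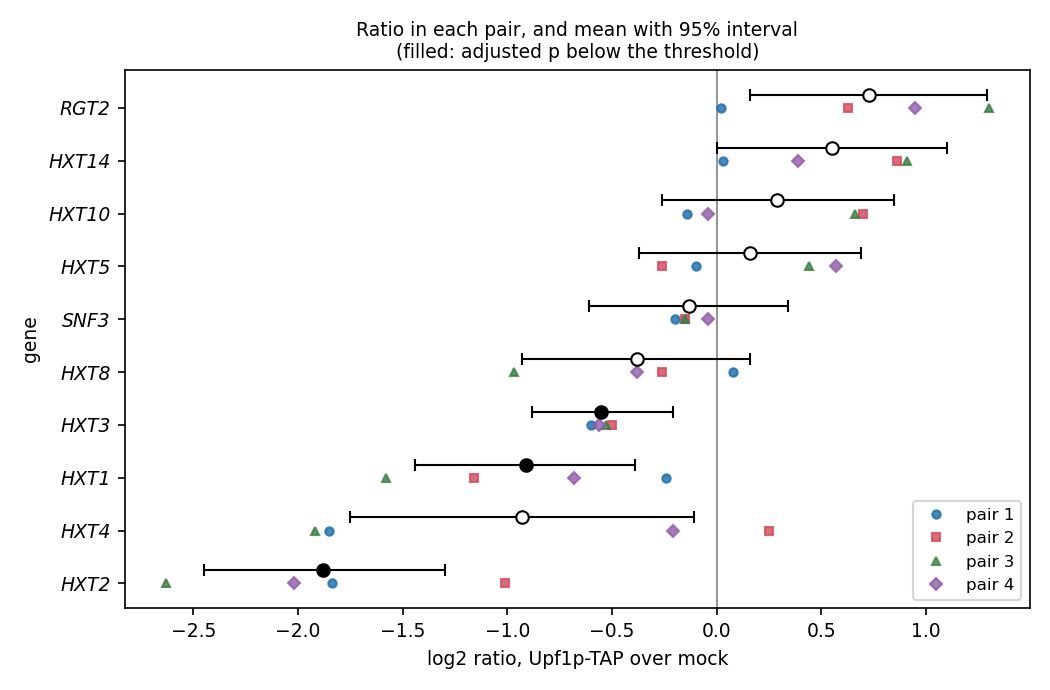
Log2 ratio of Upf1p-TAP over mock (horizontal axis) for the 10 genes, ordered by their mean, with 1 coloured symbol per pair and a black mean with its 95% interval from limma. Filled means, those of HXT1, HXT2 and HXT3, passed the test, and the intervals of HXT4 and RGT2 exclude 0 although their adjusted p-values miss the threshold.

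Other HXT genes share sequence. HXT6 and HXT7, which encode near-identical high-affinity transporters, each have a probe set whose name marks it as shared with a family, and neither passed. The HXT6 probe set (6129_f_at) gave 524, 826, 764 and 899.9 with the tag and 1738, 668, 1144 and 1014 in the mock. Its log2 ratio was -0.54 (SE 0.29, limma adjusted p = 0.192). For HXT7 (6128_f_at) the values were 439.9, 637, 581 and 771 with the tag and 1263, 624, 832 and 932 in the mock, with a log2 ratio of -0.57 (SE 0.25, limma adjusted p = 0.115). The groups overlapped in both, and pair 2 was the only pair in which the tagged array was the higher one. Each of the 2 probe sets may bind transcripts of the other gene. Without replicate 1 the log2 ratio was -0.15 for HXT6 and -0.25 for HXT7, and without replicate 2 it was -0.82 and -0.77, with no call in these fits. HXT7 was called lower after median centring alone (-0.71, limma adjusted p = 0.0451). At an unadjusted p under 0.05, 1 of the 2 was lower and 0 were higher. A further 3 probe sets were annotated to several HXT genes each (10860_s_at, 11253_s_at and 4282_f_at). Their means lay between 6.67 and 15.2 in both groups and their log2 ratios were -0.36, 0.03 and -0.18, none called.

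Some HXT genes lie close together in the RefSeq annotation, while the locus tags of HXT2, HXT8, HXT10 and HXT14 place these on other chromosomes. HXT1 and HXT5 are adjacent protein-coding genes, and 1 other gene lies between HXT1 and HXT4. HXT7 and HXT6 are adjacent, and 1 other gene lies between HXT6 and HXT3. Beside each other, HXT1 had a log2 ratio of -0.91 and was called lower, and HXT5 had 0.16 and did not pass.

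On the mock arrays the high-affinity transporters varied more between replicates than HXT1 and HXT3 did. HXT3 was unusually tight, its log2 SD there above that of only 7.6% of probe sets brighter than the median. This share was 40.7% for HXT1 and ran from 73.6% (HXT7) to 95.9% (HXT4) for the high-affinity genes. On the tagged arrays HXT6 (42.7%) and HXT7 (41.4%) lay below HXT1 (52.0%), while HXT2 (81.3%) and HXT4 (92.3%) lay above it. Across the 4 mock arrays the highest value was 3.39 times the lowest for HXT4, 2.51 times for HXT2, 2.60 times for HXT6 and 2.03 times for HXT7. The same quotient was 1.58 for HXT1 and 1.25 for HXT3. HXT2, HXT4, HXT6 and HXT7 were all highest in mock replicate 1 and lowest in mock replicate 2, and so was HXK1, a hexokinase gene (3.44 times). This trait was not particular to genes of sugar use. FAS2, a fatty acid synthase gene, had it too, with 2552, 1035, 2085 and 1422 in mock replicates 1 to 4. GAL2, a dim galactose permease gene, did not and was highest in mock replicate 4 (32.5). HXT1 went the other way in replicate 1, its lowest mock array. On the Upf1p-TAP arrays the order was not the same, with HXT2 highest in replicate 1 and lowest in replicate 3, and HXT6 and HXT7 lowest in replicate 1. The glucose left in each culture is not given in the labels, and its part in these differences was not tested.

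**Figure D3:**
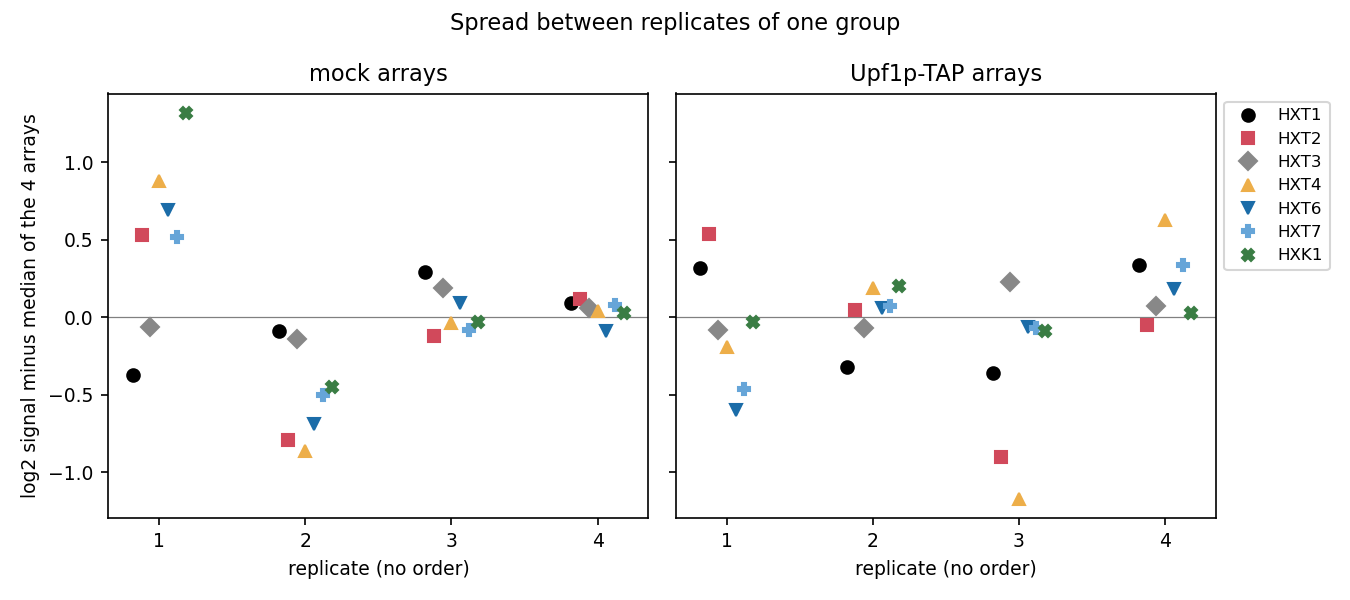
Log2(intensity + 4.09) minus the median of the 4 arrays of a group (vertical axis) for HXT1, HXT2, HXT3, HXT4, HXT6, HXT7 and HXK1, by replicate number, with mock arrays on the left and Upf1p-TAP arrays on the right. In the mock, HXT2, HXT4, HXT6, HXT7 and HXK1 stand above 0 in replicate 1 and below 0 in replicate 2, while HXT3 stays within 0.19 of 0.

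The genes of the pathway around the sensors were examined as 5 lists with 1 probe set per gene. The lists were written with earlier results of these data known, so their counts are descriptive only. Over all 5656 genes with a probe set of their own, 19.6% were called higher and 15.2% lower, with a median log2 ratio of 0.03. Of the 13 genes of the branch that runs from Rgt2p and Snf3p to Rgt1p, 6 were higher, 0 were lower and 7 did not pass, with a median of 0.78 (limma; 0 lower at an unadjusted p under 0.05 too). HRT1, which encodes the RING subunit of SCF ubiquitin ligases, had 1279.8 ± 363 with the tagged protein and 219 ± 44.2 in the mock selections (SD, n = 4), giving a log2 ratio of 2.50 (SE 0.19, limma adjusted p = 4.50e-05). CDC34, the ubiquitin-conjugating enzyme of SCF, had 443 ± 131 against 123 ± 28.9 and a log2 ratio of 1.79. SKP1, the SCF adaptor, had 2496 ± 426 against 1076 ± 178 and a log2 ratio of 1.21. These SCF subunits also serve many other substrates. GRR1 (-0.45, limma adjusted p = 0.214) and CDC53 (0.23, limma adjusted p = 0.451), also SCF genes of this list, were not called. They were named outside the naming rule.

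YCK1, a casein kinase gene, had 535, 645, 900.0 and 700.2 with the tag and 224, 272, 298 and 261 in the mock, and its log2 ratio was 1.37 (SE 0.18, limma adjusted p = 6.52e-04). All tagged arrays lay above all mock arrays. Its partner YCK2 was not called, at -0.34. AKR1, whose product palmitoylates the kinases, rose by 1.54 on the log2 scale. TUP1 (0.89, limma adjusted p = 0.0255) was higher, with overlapping groups, and its call ended without replicate 1, 2 or 4 and without the pair block (highest limma adjusted p = 0.117). YCK2 and 4 regulators of the HXT promoters were likewise named outside the naming rule. CYC8, the partner of TUP1, had a log2 ratio of 0.78 that was above 0 in 3 of 4 pairs and did not pass (limma adjusted p = 0.137), but was called without replicate 3 (1.18, limma adjusted p = 0.0388). MTH1 had a log2 ratio of -0.24 (0.00 without replicate 1), STD1 of 0.15 and RGT1 of 0.37, and these 3 did not pass.

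In the Snf1p-Mig1p branch, which represses and derepresses genes for the use of other sugars, 5 of 19 genes were higher and 1 was lower, with a median of 0.24. REG1, a regulatory subunit of the phosphatase Glc7p, had 243 ± 71.0 against 42.7 ± 9.56 in the mock selections (SD, n = 4), giving a log2 ratio of 2.37 (SE 0.22, limma adjusted p = 1.09e-04). MIG3 (1.09), SIP1 (0.97), GLC7 (0.83, probe set 5574_at) and TOS3 (0.83) were the other higher ones. The groups overlapped for all 4. The calls of SIP1 (without replicate 2, 3 or 4, and after quantile normalization), TOS3 (without replicate 1, 2 or 4, and after quantile normalization) and GLC7 (without replicate 4 and without the pair block) ended, with highest limma adjusted p-values of 0.138, 0.159 and 0.0545. The second GLC7 probe set, 5573_at, had a log2 ratio of -0.23 and was not called. MIG2, a repressor related to Mig1p, was lower, with 57.1, 44.5, 95.1 and 52.3 with the tag and 188, 107, 174 and 107 in the mock. Its log2 ratio was -1.17 (SE 0.22, limma adjusted p = 0.00388), and the groups did not overlap. SNF1 (-0.41, below 0 in 4 of 4 pairs), SNF4 (-0.41) and MIG1 (-0.13) were not called and were named outside the naming rule. The count of higher genes in this branch was 2 without replicate 4, 3 without replicate 2 and 3 after quantile normalization.

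In the Gpr1p-Ras-cAMP branch, a parallel glucose response, 2 of 17 genes were higher and 0 lower (limma; 3 and 1 at an unadjusted p under 0.05), with a median of 0.20. The 2 were RAS1 (0.75) and RGS2 (1.17), and both calls ended without replicate 3, without replicate 4 and without the pair block. Of the 4 genes for hexose phosphorylation, the step after uptake, 2 were lower and 0 higher (limma; 0 higher at an unadjusted p under 0.05 too). EMI2, related to glucokinase, had 293 ± 84.1 against 658 ± 332 in the mock selections (SD, n = 4), giving a log2 ratio of -1.08 (SE 0.19, limma adjusted p = 0.00271). HXK1 had 242, 285, 232 and 254 with the tag and 1048, 304, 407 and 426 in the mock. Mock replicate 1 stood far above the others, and the log2 ratio of -0.93 (limma adjusted p = 0.0387) became -0.54 without that pair (limma adjusted p = 0.140). The HXK1 call also ended without replicate 3, without replicate 4 and without the pair block. HXK2, the main hexokinase in glucose, had a log2 ratio of -0.03 and GLK1 of -0.36, both named outside the naming rule and not called.

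Among 16 transporters of sugars, polyols and related compounds outside the HXT family, 6 were higher and 2 lower, with a median of 0.38. ITR2, a myo-inositol transporter gene, had 558 ± 104 with the tag and 257 ± 49.8 in the mock selections (SD, n = 4), giving a log2 ratio of 1.11 (SE 0.21, limma adjusted p = 0.00388). The maltose permease genes MAL11 (1.17) and MPH2 (1.10) and the family members CIN10 (0.91) and YDL199C (0.81) were higher too. The calls of these 4 each ended without at least 1 of the pairs. MPH2 and YDL199C are dim, with mock means of 6.82 and 12.3. The MPH2 value came from a probe set with a suffixed name (6709_i_at), and MPH3, also listed, had no probe set of its own. The log2 ratio of MPH2 was 1.56 without the added constant and 0.62 with the higher one. FPS1, a glycerol channel gene named after its value was seen, was the other higher one (0.69, limma adjusted p = 0.0372). Its call ended without replicate 1, 2 or 4, without the intensity trend and after either scaling (highest limma adjusted p = 0.174). PHO84, the phosphate transporter gene, was lower (-0.76), with a limma adjusted p of 0.0804 without the pair block. GAL2, the galactose permease gene most like the HXT genes, was the other lower one (-0.69, limma adjusted p = 0.0367) and was named after its value was seen. Its values of 16.9, 12.0, 15.7 and 16.3 with the tag and 29.3, 23.9, 22.6 and 32.5 in the mock did not overlap, but are dim. The call of GAL2 ended without replicate 1, 2 or 4 and without the added constant (highest limma adjusted p = 0.142). Without replicate 2, 3 or 4 the count of higher genes on this list was 2.

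**Figure D4:**
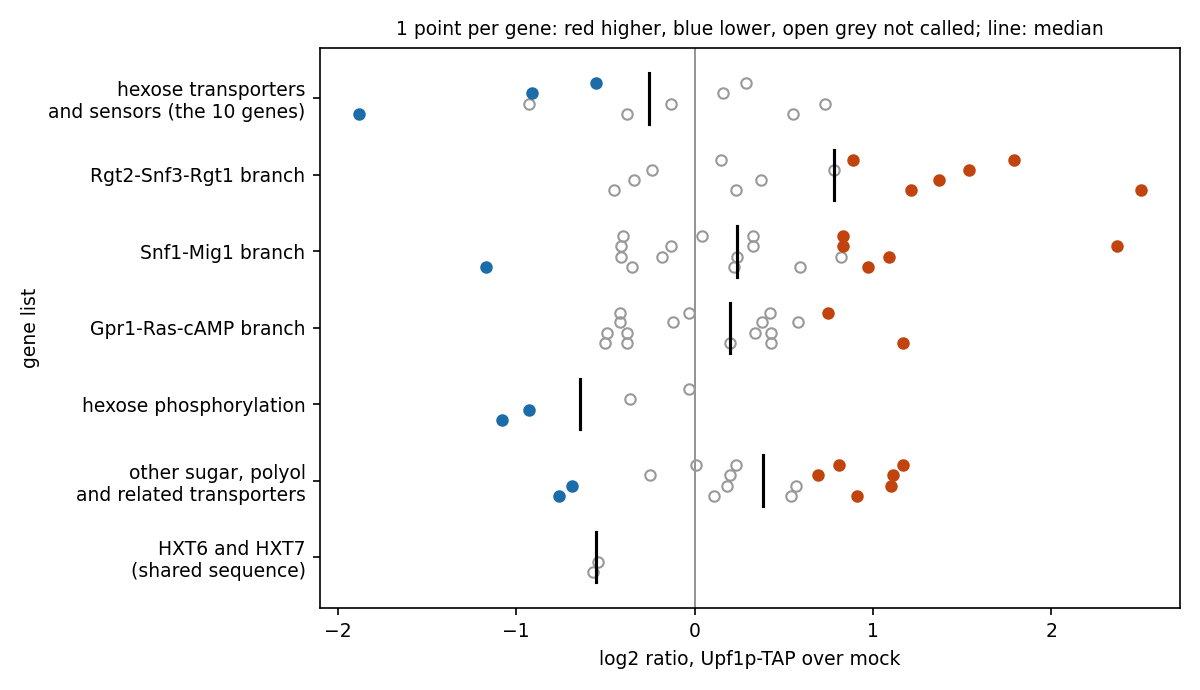
Log2 ratio of Upf1p-TAP over mock (horizontal axis), 1 point per gene, for the 10 transporter and sensor genes, for 5 lists of pathway and transporter genes and for HXT6 and HXT7, with a line at each median. Filled red points were called higher filled blue ones lower, and open grey ones did not pass. The row of the 10 genes holds 3 blue points and 0 red ones, and that of the Rgt2-Snf3-Rgt1 branch 6 red and 0 blue.

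The transcripts whose 4 pair ratios were most like those of HXT2 were sought among 3829 other probe sets of 1 gene, all brighter than the median. HSP104, a protein disaggregase gene, was the nearest, with a root mean square difference of 0.22 and a log2 ratio of -1.70. VTC4, a vacuolar polyphosphate polymerase gene (0.33, log2 ratio -1.55), and FAS2, a fatty acid synthase gene (0.36, log2 ratio -1.67), followed. For RGT2 the nearest were YHP1, a homeobox repressor gene (0.11, log2 ratio 0.74), GCV1, a glycine decarboxylase gene (0.12, log2 ratio 0.81), and RTA1 (0.13, log2 ratio 0.66). Likeness here rests on 4 pairs.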

How the data were processed

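RNA from 4 Upf1p-TAP and 4 mock selections was measured on 8 Affymetrix arrays, grouped by their titles. Intensity values for 9335 probe sets, linear and not logged, were deposited by the authors in 1 table, made with GCOS per the submitters' processing notes, which give no version or setting. The values had been scaled, since the trimmed mean of each array (2% left out at each end) was 250.2 to 250.3. They are not counts of molecules, and with 8 arrays precision is limited by their number.

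The 60 control probe sets were dropped. By the platform annotation 6504 probe sets had 1 gene, 328 had several and 2443 had none, with symbols brought up to date from a RefSeq gene table. limma 3.58.1 in R 4.3.3 fitted group and pair to log2(intensity + 4.09), the constant being the 10th percentile of tested values. eBayes used an intensity trend, and SE is its moderated standard error. The series' design text speaks of pairs. Deviations from group means over 4637 brighter probe sets correlated at 0.19 to 0.56 between arrays of the same number and at -0.55 to 0.35 otherwise. No source says whether cultures were separate, so the spread behind the p-values is that of these selections and may be technical. On simulated arrays for this comparison (9275 probe sets), 24% of changes of 1 and 80% of changes of 2 (log2) were recovered. Only 100 probe sets were changed by each amount there, against 1642 called higher and 1249 called lower in the data. With so few changes the Benjamini-Hochberg cutoff on p is stricter. These shares therefore do not give the chance of detecting a change in the real fit.

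A gene with several probe sets was shown by a plainly named one, then the brightest. The naming rule took all 10 genes, up to 6 called genes per list, or the 2 with the smallest p where fewer than 2 passed, and 3 nearest genes for the highest and lowest ratio. Members and lists were chosen with earlier results of these data known. Alternatives were no added constant, one at the 25th percentile (16.0), quantile normalization, median centring, a filter on dim probe sets, no pair block, no trend, the mean over all probe sets of a gene, and each pair left out.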

Additional observations from a re-analysis of the deposited data

Results flagged for a closer look

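HXT14 in mock replicate 4 stood apart from the other mock arrays, with an intensity of 1.04 against 0.192 to 0.309. The gap on the log2 scale was 0.85 of the range of the 4 arrays, above Dixon's 95% critical value for 4 values. All 4 mock values lie below the added constant. It was 1 of 30 groups of 4 examined, and chance alone gives about 1 in 20.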

How the results depend on the processing

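Over all probe sets, higher calls numbered 1642 and lower calls 1249. Leaving out 1 pair gave 1076 to 1384 higher and 775 to 953 lower, both lowest without replicate 4. Higher probe sets made up 56.8% of calls, 49.6% after quantile normalization and 42.7% after median centring, which shifted the median over all probe sets from 0.00 to -0.14. Of the 10 genes, 3 were lower, with 2 to 4 under the alternatives and 2 with any 1 pair left out. The count of higher ones was 0, and became 1 (RGT2, 0.73) with dim probe sets filtered out and 0 to 1 with pairs left out. HXT1 lay between -1.14 and -0.69, HXT3 between -0.56 and -0.53, HXT4 between -1.33 and -0.60 and RGT2 between 0.53 and 0.96 with 1 pair left out. HXT3 was not called without the intensity trend (-0.55), and HXT4 was called after median centring (-1.08) and quantile normalization (-1.07). Across the 5 lists together, 19 of 69 genes were higher and 5 lower, with 9 to 17 and 3 to 4 when 1 pair was left out, fewest higher without replicate 4 and 11 without replicate 2. Without the replicate block, 15 were higher and 3 lower, 1340 and 931 over all probe sets, and HXT1 (adjusted p = 0.0179), HXT2 (0.00185) and HXT3 (0.0463) stayed called. The alternatives are not given for GRR1, CDC53, SNF1, SNF4 and MIG1. For the other 39 named values, 361 of 428 recomputed values kept direction and call, 59 lost the call, 5 gained it and 3 uncalled ones reversed. These 3 were MTH1 without replicate 1 and HXK2 without replicate 1 and after quantile normalization (0.07). With 1 pair left out, MTH1 lay between -0.39 and 0.00 and HXK2 between -0.15 and 0.23. Why calls changed was not tested, except that fewer pairs leave fewer degrees of freedom. The dimness of HXT10, HXT14 and SNF3 limits what can be seen for them.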
